A study of Homo sapiens with 9 samples.

Results

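The autophagy machinery and cargo receptors were described through 38 genes chosen by name for their known roles. Earlier results of these data were known when they were chosen. The deposited table held 70116 gene IDs, 62700 of which carried a symbol. All 38 names matched 1 ID each. They fall into 6 roles: the ULK initiation complex (5 genes), the class III phosphatidylinositol 3-kinase complex (5), membrane supply and PI3P effectors (7), the conjugation enzymes and ATG4 proteases (10), the ATG8 family (5) and the cargo receptors and adaptors (6).

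The cells were U2OS, an established human osteosarcoma line. The 3 groups of 3 libraries were PERK-KO U2OS given palbociclib for 4 days, wild-type U2OS given palbociclib for 4 days, and wild-type U2OS given vehicle. Palbociclib blocks the cell-cycle kinases CDK4 and CDK6. PERK, the product of EIF2AK3, is an endoplasmic reticulum stress kinase, and it was targeted in the KO derivative with CRISPR/Cas9. The labels do not say whether the KO derivative was a single clone. Knockout cells on vehicle were not analysed here, so the genotypes were compared on the drug only. Polyadenylated RNA was sequenced to 33674039 to 42577874 counts per library, and 19408 genes passed the filter on low counts. Libraries are numbered by set in the labels, with no word on whether a set was its own culture. The p-values here reflect library-to-library spread that could be technical.

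Autophagy delivers cytoplasmic material to the lysosome in double-membraned vesicles. The ULK kinase complex starts the process, the class III PI3-kinase marks the site with PI3P, and WIPI proteins, ATG9A and the ATG2 lipid carriers build the membrane. A pair of ubiquitin-like conjugation systems then attaches ATG8 proteins (the LC3 and GABARAP subfamilies) to that membrane, and cargo receptors bind both ATG8 and the material to be degraded. Stress kinases that act through eIF2α, PERK among them, and the lysosomal transcription factors of the MITF and TFE family are known to induce many of these genes in other settings.

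EIF2AK3 was measured first as a check of the labels. It stood at 19.7, 18.7 and 17.8 CPM (counts scaled to library size, with TMM factors) in the 3 KO libraries, at 35.7, 36.8 and 31.8 CPM in wild-type cells on palbociclib and at 31.7, 34.8 and 32.8 CPM on vehicle. The KO libraries lay below all 6 wild-type libraries, so the mRNA was reduced and still present. PERK protein was not measured.

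Of the 38 members 35 passed the filter and were tested. ATG16L1, which directs the ATG12 and ATG5 conjugate to the membrane, and the PI3P effector WDR45 were listed at 0 counts in all 9 libraries. MAP1LC3A, an LC3 gene, had 1 to 8 counts per library. SQSTM1, the gene of the ubiquitin-binding receptor p62, had 92 to 146 counts per library and GABARAP 30 to 48, far below what is usual for them in cultured cells. Genes that overlap 3 of these loci were nearly uncounted too: over all 9 libraries MGAT4B had 1 count, and MRNIP, PRAF2 and AC120057.2 had 0. No source used here says how reads that touch several genes were handled, so these low values cannot be read as expression levels, and whether the counting produced them was not tested. In all, 20 members overlap another protein-coding gene, mostly on the opposite strand, and the strand setting is not given either. Examples are BECN1 (with PSME3), ATG3 (SLC35A5), ATG5 (PRDM1), ATG7 (VGLL4), ATG12 (AP3S1), WIPI1 (ARSG), MAP1LC3B (FBXO31), OPTN (CCDC3), TAX1BP1 (JAZF1) and TP53INP2 (NCOA6). Near-identical copies held few reads, with 10 to 24 counts per library for MAP1LC3B2 and 0 for GABARAPL3.

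Per kilobase of exon, levels within the machinery spanned a wide range. In KO cells on palbociclib WDR45B was highest at 54.0 CPM per kb, ahead of TAX1BP1 at 39.1 and WIPI2 at 32.7. WDR45B was also highest in wild-type cells, at 52.6 CPM per kb on palbociclib and 54.4 on vehicle. ULK2 was the lowest of the members that can be read, at 0.929 CPM per kb in KO cells on palbociclib, 0.959 in wild-type cells on palbociclib and 0.766 on vehicle.

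In wild-type cells more of the machinery genes rose than fell with palbociclib. Of the 35 tested members 18 rose and 4 fell (edgeR quasi-likelihood test, Benjamini-Hochberg adjusted p under 0.05). Over all 19408 genes 43.7% were called, 21.3% higher and 22.3% lower. The median log2 fold change was 0.20 over the members and -0.02 over all genes. In bulk RNA, fewer cells that express a gene and less of its RNA per cell cannot be told apart.

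**Figure D1:**
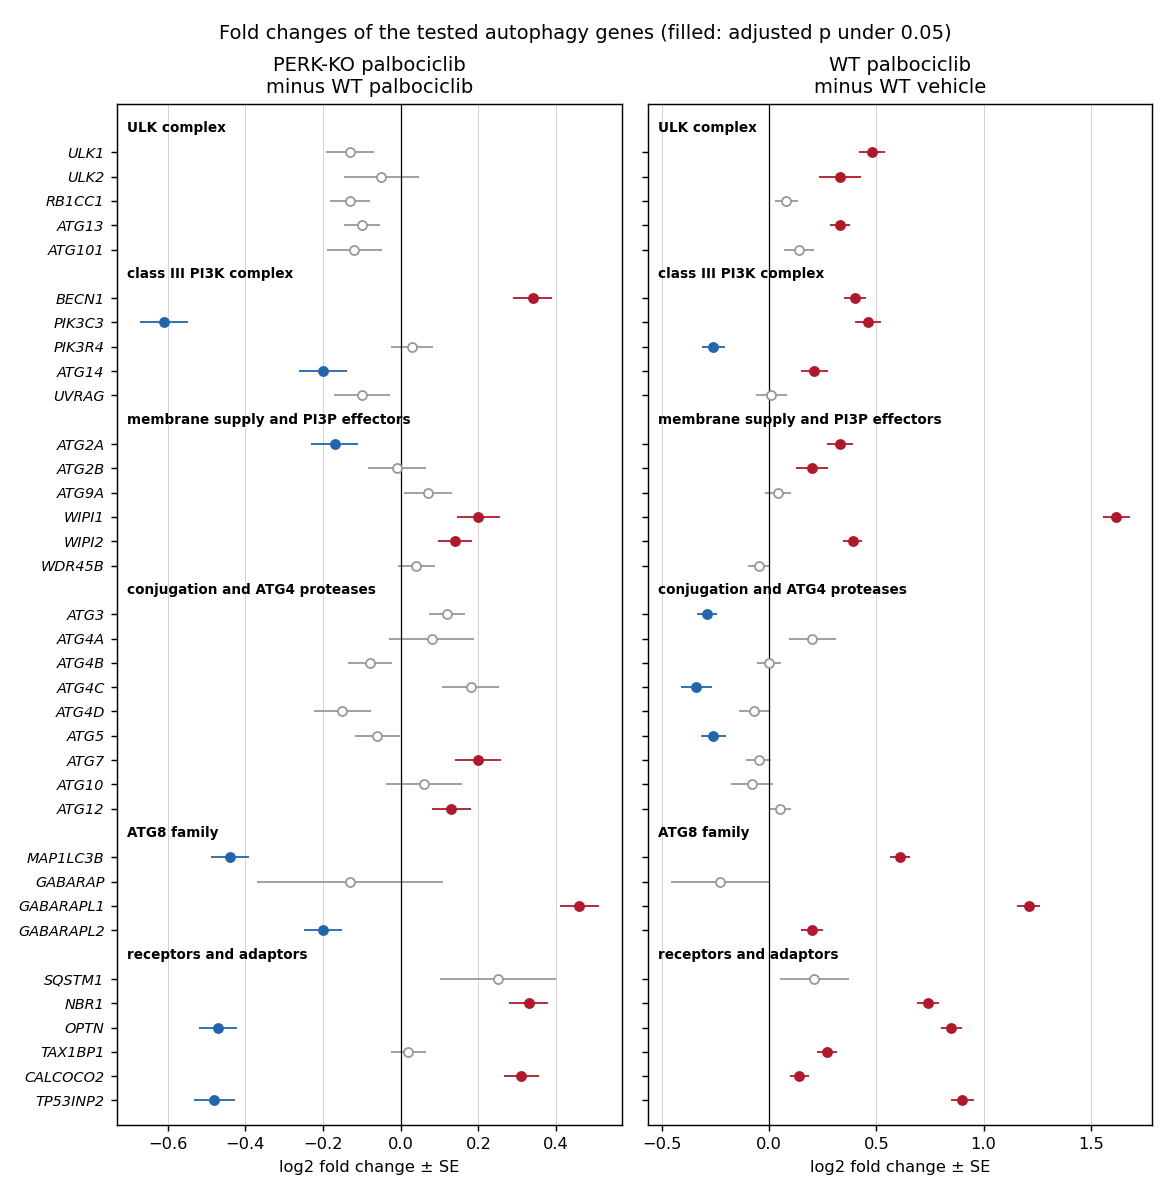
Log2 fold changes (x axis, ± SE) of the 35 tested autophagy genes (y axis, by role), for KO against wild-type cells on palbociclib (left) and for palbociclib against vehicle in wild-type cells (right), with filled points at an edgeR adjusted p under 0.05. On the right 18 genes are called higher, led by WIPI1 at 1.62, and 4 lower, while on the left 8 are called higher and 7 lower.

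The gene that rose most was WIPI1 (ENSG00000070540.13, GRCh38 chromosome 17, 68420948 to 68457513, minus strand), which encodes a PI3P-binding protein of the forming autophagosome. Its level was 39.4, 38.1 and 40 CPM on palbociclib and 12.7, 12.3 and 13.2 CPM on vehicle. The palbociclib libraries all lay about 3-fold above the vehicle libraries, with a fitted fold of 3.08 (log2 fold change 1.62 ± 0.061 SE, edgeR adjusted p = 1.6e-13). GABARAPL1 (ENSG00000139112.11, chromosome 12, 10212458 to 10223130, plus strand), an ATG8 of the GABARAP subfamily, had 94.9, 94.9 and 95.4 CPM on palbociclib and 38.8, 44.2 and 40.5 CPM on vehicle. Its groups did not overlap, and the fold was 2.31 (log2 1.21 ± 0.053, edgeR adjusted p = 1.76e-12). TP53INP2 (ENSG00000078804.13, chromosome 20, 34704290 to 34713439, plus strand), an ATG8-binding adaptor, had 70.4, 67.2 and 66.2 CPM on palbociclib and 34.5, 38.6 and 36.1 CPM on vehicle. The fold was 1.87 with no overlap (log2 0.90 ± 0.054, edgeR adjusted p = 1.59e-10).

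The promoters of these 3 genes are shown because they changed most with the drug. Each line holds the 250 bases before the RefSeq start on GRCh38.p14, 5′ to 3′ on the gene's strand, from chr17:68457497-68457746 (minus), chr12:10212627-10212876 (plus) and chr20:34704094-34704343 (plus). Capitals mark TGACGTCA, the cyclic AMP response element bound by CREB and ATF factors. This motif was added to the search after these promoters had been read.
WIPI1: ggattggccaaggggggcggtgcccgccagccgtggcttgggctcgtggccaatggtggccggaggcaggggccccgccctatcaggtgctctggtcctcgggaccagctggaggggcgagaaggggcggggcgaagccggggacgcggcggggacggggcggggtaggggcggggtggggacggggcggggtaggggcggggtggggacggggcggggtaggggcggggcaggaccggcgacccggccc
GABARAPL1: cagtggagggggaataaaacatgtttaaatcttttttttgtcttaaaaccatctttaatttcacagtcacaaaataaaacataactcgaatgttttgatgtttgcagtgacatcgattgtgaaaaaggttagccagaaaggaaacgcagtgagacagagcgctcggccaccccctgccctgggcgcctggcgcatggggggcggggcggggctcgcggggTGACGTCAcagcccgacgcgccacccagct
TP53INP2: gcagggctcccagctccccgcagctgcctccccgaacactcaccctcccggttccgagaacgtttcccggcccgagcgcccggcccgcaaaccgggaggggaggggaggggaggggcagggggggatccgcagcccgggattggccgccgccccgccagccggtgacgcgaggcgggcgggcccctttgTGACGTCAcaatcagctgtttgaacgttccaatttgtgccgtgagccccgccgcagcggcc
The element starts 30 bases before the start in GABARAPL1 and 61 bases before it in TP53INP2. TP53INP2 has 2 RefSeq windows, and the element was found only in the one shown. The GABARAPL1 window lies inside the gene span given above, so other starts of that gene may lie upstream of it. GC content was 79.6% in WIPI1, 51.6% in GABARAPL1 and 72.8% in TP53INP2.

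RefSeq promoter windows, which run from 250 bases before the start to 50 bases after it, were matched for 33 of the 38 members and searched on both strands. TGACGTCA occurred in 2 of the 33 members, the pair above, and in 2.25% of 27305 genes. CACGTG, the E-box core recognised by MITF and TFE factors, occurred in 2 members (ATG14 and ATG3) and in 8.77% of genes. TCACGTGA, a longer form that contains it, occurred in ATG3 alone among the members and in 1.18% of genes. The forkhead element TGTTTAC was in CALCOCO2 and WDR45 and in 4.19% of genes. The CEBP and ATF response element TGATGNAAT was in 0 members and in 1.22% of genes. In the part before the start alone, TCACGTGA was in 0 members and TGTTTAC in CALCOCO2 only. A match is a string of letters in this window and shows no binding.

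Among the initiation genes ULK1, the kinase that starts autophagy, had 62.4, 62.7 and 70.6 CPM on palbociclib and 47.0, 44.5 and 48.7 CPM on vehicle. Every palbociclib library was above every vehicle library, and ULK1 rose by 0.48 ± 0.062 on the log2 scale (edgeR adjusted p = 3.31e-06). Its paralogue ULK2 (0.33 ± 0.097) and the scaffold subunit ATG13 (0.33 ± 0.048) rose as well. The scaffold RB1CC1 (0.08 ± 0.052) and the ATG13 partner ATG101 (0.14 ± 0.071, edgeR adjusted p = 0.118) were not called. ATG101 was called with the set as a block (edgeR adjusted p = 0.0389) and without the first vehicle library (0.21, edgeR adjusted p = 0.0288).

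Subunits of the class III PI3-kinase complex moved in both directions. PIK3C3, the catalytic lipid kinase, had 37.2, 37.3 and 39.0 CPM on palbociclib and 26.9, 26.4 and 29.2 CPM on vehicle, without overlap (log2 fold change 0.46 ± 0.060, edgeR adjusted p = 3.95e-06). Its regulatory subunit BECN1 (0.40 ± 0.051) and the autophagy-specific subunit ATG14 (0.21 ± 0.062) also rose. PIK3R4, the regulatory kinase-like subunit that binds PIK3C3, fell to 46.9, 45.1 and 44.3 CPM on palbociclib, against 56.5, 55.8 and 51.0 CPM on vehicle. The groups did not overlap (log2 -0.26 ± 0.054, edgeR adjusted p = 0.000515). UVRAG, a BECN1 partner of endosomal routes, was not called (0.01 ± 0.072).

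Of the membrane genes, the PI3P effector WIPI2, which recruits ATG16L1, rose after WIPI1 by 0.39 ± 0.044 on the log2 scale, and the lipid carriers ATG2A (0.33 ± 0.061) and ATG2B (0.20 ± 0.074) rose too. The lipid scramblase ATG9A (0.04 ± 0.061) and the WIPI protein WDR45B (-0.05 ± 0.047) were not called. WIPI1 thus differed 3.08-fold between drug and vehicle, WIPI2 1.31-fold and WDR45B 0.967-fold.

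Among the conjugation enzymes and ATG4 proteases 0 of 9 tested were called higher and 3 lower by edgeR, beside 21.3% and 22.3% of all genes. Whether this role departs from those shares was not tested. The count of higher genes was also 0 at an unadjusted p under 0.05 and by DESeq2. ATG4C, a protease that processes ATG8 proteins, had 15.5, 14.2 and 14.8 CPM on palbociclib and 18.2, 18.8 and 19.4 CPM on vehicle. ATG3, the E2-like enzyme that transfers ATG8 to lipid, had 68.0, 69.2 and 66.7 CPM on palbociclib and 83.8, 84.4 and 80.8 CPM on vehicle. ATG5, which joins ATG12 in the E3-like complex, had 44.3, 43.0 and 45.2 CPM on palbociclib and 51.2, 50.7 and 56.6 CPM on vehicle. In all 3 genes every palbociclib library lay below every vehicle library. The log2 fold changes were -0.34 ± 0.073 for ATG4C, -0.29 ± 0.046 for ATG3 and -0.26 ± 0.056 for ATG5, with edgeR adjusted p = 0.000742, 3.94e-05 and 0.000886 in that order. The E1-like enzyme ATG7 (-0.05), the E2-like ATG10 (-0.08), the ubiquitin-like ATG12 (0.05) and the proteases ATG4A (0.20), ATG4B (-0.00) and ATG4D (-0.07) were not called.

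Among the ATG8 genes MAP1LC3B, the standard LC3 marker of autophagosomes, had 154, 160 and 154 CPM on palbociclib and 97.4, 103 and 105 CPM on vehicle. The groups were apart and the fold was 1.53 (log2 0.61 ± 0.048, edgeR adjusted p = 4.84e-09). GABARAPL2 rose by 0.20 ± 0.050 on the log2 scale. GABARAP, whose few counts are discussed above, had a log2 fold change of -0.23 ± 0.23 and was not called.

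Of the 6 receptors and adaptors 5 rose, beside 21.3% of all genes. OPTN, a receptor for ubiquitinated mitochondria and bacteria, had 107, 98.2 and 104 CPM on palbociclib and 57.7, 58.7 and 54.9 CPM on vehicle, a 1.80-fold difference without overlap (log2 0.85 ± 0.049, edgeR adjusted p = 1.07e-10). NBR1, a receptor for ubiquitinated aggregates and peroxisomes, had 197, 187 and 193 CPM on palbociclib and 110, 120 and 117 CPM on vehicle. Again no libraries overlapped, and the fold was 1.67 (log2 0.74 ± 0.051, edgeR adjusted p = 9.69e-10). TAX1BP1 (0.27 ± 0.046) and CALCOCO2 (0.14 ± 0.045), receptors for damaged organelles and bacteria, rose less. SQSTM1 was not called (0.21 ± 0.16) and its counts cannot be read as a level.

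**Figure D2:**
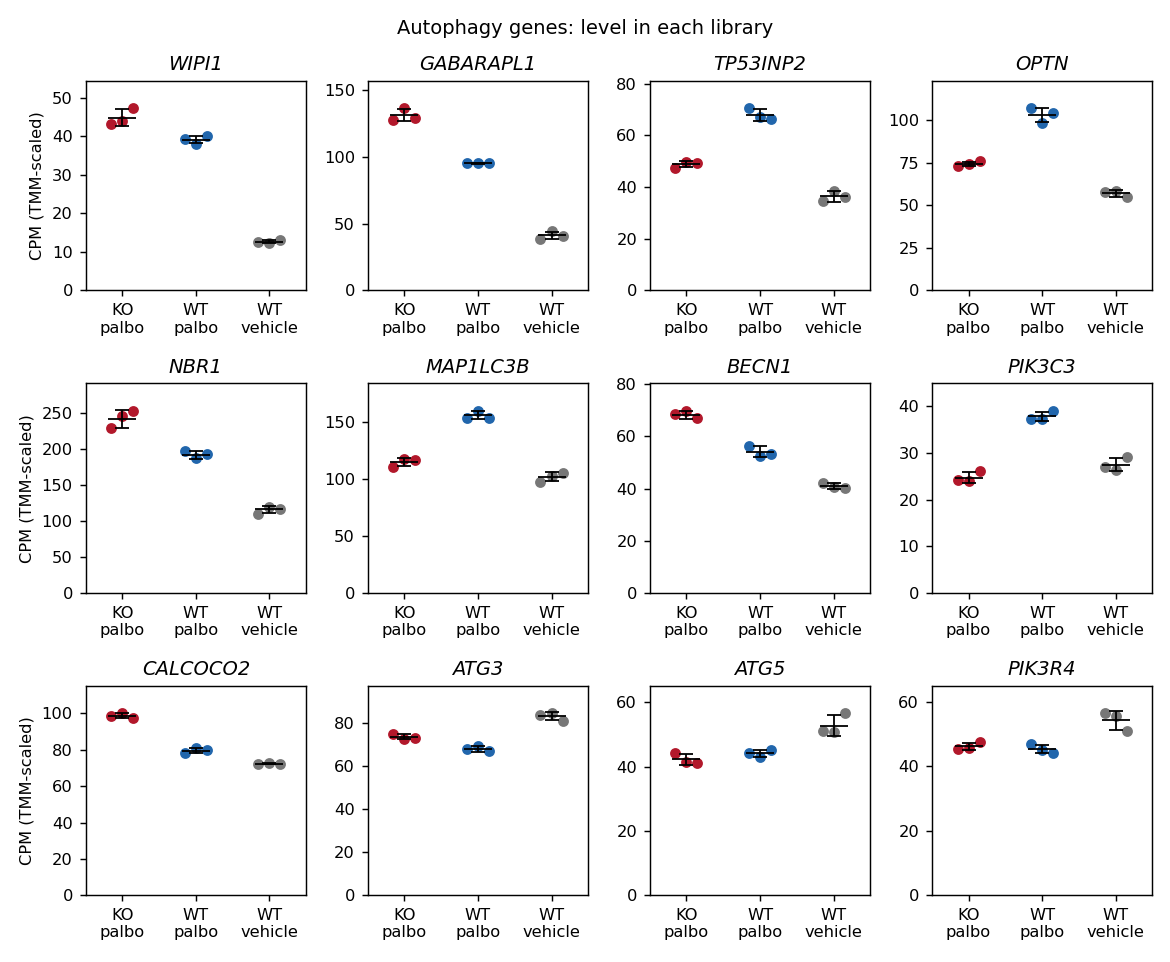
TMM-scaled CPM (y axis, from 0) of 12 autophagy genes in each library, with KO cells on palbociclib at the left, wild-type cells on palbociclib in the middle and wild-type cells on vehicle at the right of each panel. Points are libraries and bars the mean ± SD (n = 3), and WIPI1 and GABARAPL1 are highest in KO cells on palbociclib while OPTN and MAP1LC3B are highest in wild-type cells on palbociclib.

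Between genotypes on palbociclib the machinery split by gene. Of the 35 tested members 8 were higher in KO than in wild-type cells and 7 were lower, beside 27.9% of all 19408 genes called, 14.9% higher and 13% lower. The median log2 fold change was -0.01 over the members and 0.01 over all genes. Scaled by library totals only, the split was 6 higher and 9 lower. The count of higher members was 4 without the second wild-type palbociclib library or without the third KO library.

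ULK complex genes gave 0 calls among 5 between genotypes, beside 27.9% of all genes called. Of these 5 genes 2 were lower at an unadjusted edgeR p under 0.05, and DESeq2 called 0. Their log2 fold changes were -0.05 to -0.13. With the set as a block ULK1 (-0.13, edgeR adjusted p = 0.0332) and RB1CC1 (-0.13, edgeR adjusted p = 0.0122) were called lower. RB1CC1 was also called lower with library totals only, with no low-count filter, with only the 6 libraries compared and without the first vehicle library (edgeR adjusted p = 0.0261 to 0.0499), and ATG13 with library totals only (-0.13, edgeR adjusted p = 0.0462).

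PIK3C3 and BECN1, which bind each other in the class III PI3-kinase complex, moved apart. PIK3C3 (ENSG00000078142.14, chromosome 18, 41955206 to 42087830, plus strand) had 24.1, 24.0 and 26.1 CPM in KO cells and 37.2, 37.3 and 39.0 CPM in wild-type cells. Every KO library was lower, at 0.654 of the wild-type level (log2 -0.61 ± 0.061, edgeR adjusted p = 2.04e-07). BECN1 (ENSG00000126581.13, chromosome 17, 42810134 to 42833350, minus strand) had 68.4, 69.8 and 66.9 CPM in KO cells and 56.5, 52.5 and 53.3 CPM in wild-type cells. Every KO library was higher, 1.26-fold (log2 0.34 ± 0.050, edgeR adjusted p = 3.07e-05). ATG14 was lower in KO cells (-0.20 ± 0.062), and PIK3R4 (0.03) and UVRAG (-0.10) were not called.

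Within the ATG8 family GABARAPL1 was higher in KO cells, and both MAP1LC3B and GABARAPL2 were lower. GABARAPL1 had 127, 136 and 129 CPM in KO cells and 94.9, 94.9 and 95.4 CPM in wild-type cells, a 1.37-fold difference without overlap (log2 0.46 ± 0.051, edgeR adjusted p = 9.79e-07). MAP1LC3B had 111, 118 and 117 CPM in KO cells and 154, 160 and 154 CPM in wild-type cells, 0.738 of the wild-type level (log2 -0.44 ± 0.048, edgeR adjusted p = 7.25e-07). GABARAPL2 had 70.5, 72.6 and 69.7 CPM in KO cells and 79.5, 82.4 and 83.3 CPM in wild-type cells (log2 -0.20 ± 0.050, edgeR adjusted p = 0.00398). None of these 3 genes had overlapping groups.

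Receptors and adaptors divided in the same way. NBR1 had 229, 246 and 253 CPM in KO cells and 197, 187 and 193 CPM in wild-type cells (log2 0.33 ± 0.050, edgeR adjusted p = 3.99e-05). CALCOCO2 had 98.3, 100 and 97.4 CPM in KO cells and 78.2, 80.8 and 79.6 CPM in wild-type cells (log2 0.31 ± 0.045, edgeR adjusted p = 2.32e-05). Both receptors were higher in every KO library. OPTN had 73.3, 74.2 and 75.8 CPM in KO cells and 107, 98.2 and 104 CPM in wild-type cells (log2 -0.47 ± 0.049, edgeR adjusted p = 4.3e-07). TP53INP2 had 47.5, 49.6 and 49.4 CPM in KO cells and 70.4, 67.2 and 66.2 CPM in wild-type cells (log2 -0.48 ± 0.053, edgeR adjusted p = 1.02e-06). Both were lower in every KO library, at 0.724 of the wild-type level for OPTN and 0.719 for TP53INP2. TAX1BP1 (0.02) and SQSTM1 (0.25 ± 0.15) were not called.

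The remaining differences were small. WIPI1 had 43.2, 44.1 and 47.3 CPM in KO cells and 39.4, 38.1 and 40 CPM in wild-type cells (log2 0.20 ± 0.056, edgeR adjusted p = 0.0116). ATG7 had 39.1, 37.3 and 38.9 CPM in KO cells and 33.4, 32.2 and 35.0 CPM in wild-type cells (log2 0.20 ± 0.059, edgeR adjusted p = 0.0154). Neither gene's groups overlapped. WIPI2 (0.14) and ATG12 (0.13, edgeR adjusted p = 0.0488) were also called higher and ATG2A (-0.17) lower. The calls of WIPI1, WIPI2, ATG7, ATG12, ATG14 and ATG2A were each lost in at least 1 of 15 other settings, leaving out single libraries among them. That of ATG12 was lost in most of the 15, DESeq2 and library totals only included. ATG3 (0.12, edgeR adjusted p = 0.0338) and ATG4C (0.18, edgeR adjusted p = 0.0416) were called higher with the set as a block and in none of the other settings run.

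The other tested genes within 5 Mb of most called members were shifted in the same direction. Around CALCOCO2 the 164 neighbours had a median log2 fold change of 0.33, against 0.31 for the gene itself, and 55.5% of them were called higher and 0.61% lower. The neighbours' median was 0.29 around BECN1, 0.30 around NBR1, 0.20 around WIPI1, 0.23 around ATG7, 0.22 around WIPI2 and 0.17 around ATG12. BECN1, NBR1 and CALCOCO2 lie on 1 arm of chromosome 17 and share neighbours. These 7 higher members differed from their neighbours' median by -0.09 (WIPI2) to 0.05 (BECN1). GABARAPL1 stood further off, at 0.46 against 0.29 for its 120 neighbours.

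Most of the lower members differed more from their neighbours' median than the higher members other than GABARAPL1 did. PIK3C3 was at -0.61 against -0.20 for 15 neighbours, TP53INP2 at -0.48 against -0.21 for 110, OPTN at -0.47 against -0.27 for 51 and MAP1LC3B at -0.44 against -0.16 for 106. GABARAPL2 was closer, at -0.20 against -0.14 for 70. ATG14 (-0.20) and ATG2A (-0.17) had neighbours at -0.04 and 0.01. WDR45B and TAX1BP1 stood near 0 in raised surroundings, WDR45B at 0.04 against 0.26 and TAX1BP1 at 0.02 against 0.20. EIF2AK3 itself was at -0.89 against -0.09 for its 50 neighbours. What part chromosome position had in the members' differences was not tested.

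**Figure D3:**
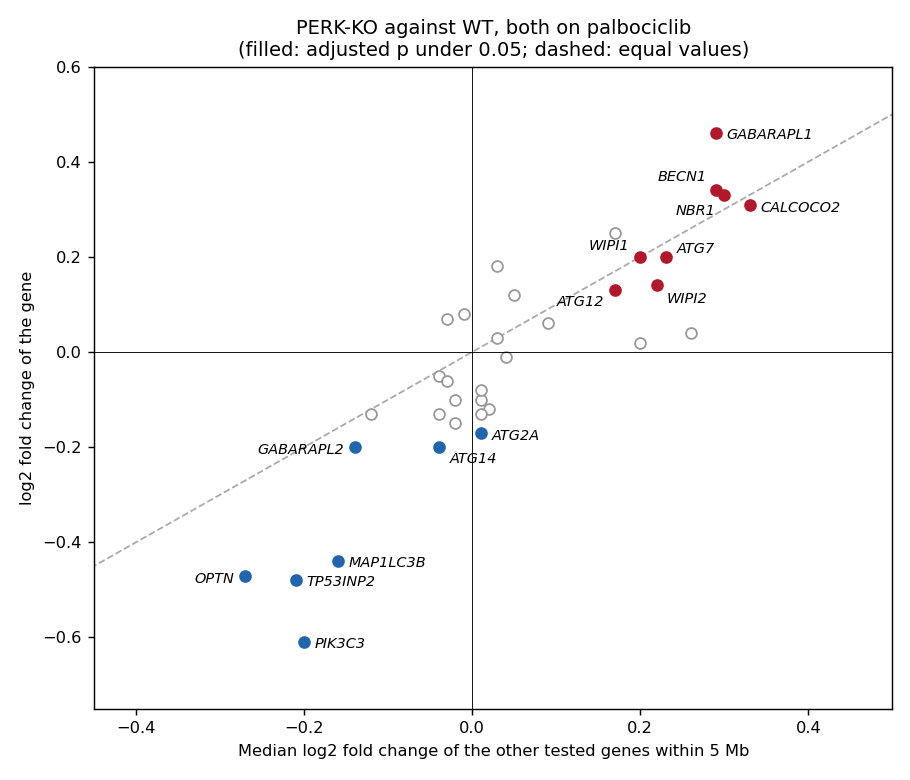
Log2 fold change of each tested autophagy gene between KO and wild-type cells on palbociclib (y axis) against the median of the other tested genes within 5 Mb (x axis), with filled points at an edgeR adjusted p under 0.05 and a dashed line of equal values. BECN1, NBR1, CALCOCO2, WIPI1 and ATG7 lie near the line, and PIK3C3, TP53INP2, OPTN and MAP1LC3B lie below it.

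KO cells on palbociclib were also set against wild-type cells on vehicle, which shares libraries with both comparisons above and is no independent evidence. Of the 35 tested members 19 were higher and 5 lower, beside 51.7% of all genes called, 25.7% higher and 26% lower. The medians were 0.16 over the members and -0.01 over all genes. The count of lower members was 3 without the third vehicle library or without the first KO library.

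WIPI1 had 43.2, 44.1 and 47.3 CPM in KO cells on palbociclib and 12.7, 12.3 and 13.2 CPM on vehicle, a 3.53-fold difference (log2 1.82 ± 0.061). GABARAPL1 had 127, 136 and 129 CPM in KO cells and 38.8, 44.2 and 40.5 CPM on vehicle, 3.17-fold (log2 1.66 ± 0.053). NBR1 had 229, 246 and 253 CPM in KO cells and 110, 120 and 117 CPM on vehicle, 2.10-fold (log2 1.07 ± 0.051). These 3 genes differed by 2-fold or more, and none had overlapping groups. BECN1 had 68.4, 69.8 and 66.9 CPM in KO cells and 42.2, 40.7 and 40.1 CPM on vehicle (log2 0.74 ± 0.050). WIPI2 had 290, 297 and 292 CPM in KO cells and 204, 205 and 199 CPM on vehicle (log2 0.53 ± 0.044). Both were higher in every KO library. SQSTM1 was called higher too (0.47 ± 0.15, edgeR adjusted p = 0.0157), at 3.35, 4.22 and 3.11 CPM in KO cells and 2.63, 2.47 and 2.59 CPM on vehicle. With SQSTM1, whose counts cannot be read as a level, all 6 receptors and adaptors were called higher, beside 25.7% of all genes. The SQSTM1 call was lost without the second KO library (edgeR adjusted p = 0.109) or the second vehicle library (edgeR adjusted p = 0.0538).

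Members that stood lower in KO cells on palbociclib than on vehicle were ATG5, PIK3R4, ATG4D, ATG3 and PIK3C3. ATG5 had 44.4, 41.4 and 41.2 CPM in KO cells and 51.2, 50.7 and 56.6 CPM on vehicle (log2 -0.32 ± 0.056). PIK3R4 had 45.5, 45.7 and 47.6 CPM in KO cells and 56.5, 55.8 and 51.0 CPM on vehicle (log2 -0.24 ± 0.053). Neither had overlapping groups. ATG4D, an ATG4 protease, had 14.1, 14.7 and 14.6 CPM in KO cells and 16.4, 16.4 and 17.6 CPM on vehicle (log2 -0.22 ± 0.072). ATG3 had 75, 72.7 and 73.0 CPM in KO cells and 83.8, 84.4 and 80.8 CPM on vehicle (log2 -0.17 ± 0.046). Both were lower in every KO library. PIK3C3 was close to the vehicle level in KO cells (log2 -0.15 ± 0.062, edgeR adjusted p = 0.0445), and that call was lost in most other settings. Of the genes lower in KO than in wild-type cells on palbociclib, OPTN (0.38 ± 0.050), TP53INP2 (0.42 ± 0.054) and MAP1LC3B (0.18 ± 0.048) still stood above vehicle, and GABARAPL2 (-0.01) and ATG14 (0.01) were not called against it. ATG4C was not called (-0.16, edgeR adjusted p = 0.062) and was called lower with the set as a block (-0.17, edgeR adjusted p = 0.0310), with library totals only (edgeR adjusted p = 0.031) and without the third KO library (edgeR adjusted p = 0.0363).

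The make-up of the ATG8 mRNA pool as counted differed between all 3 groups. On the per-kilobase scale GABARAPL1 made up 41.2% ± 0.302 of the summed level of the 5 ATG8 genes in KO cells on palbociclib, 29.1% ± 0.348 in wild-type cells on palbociclib and 18.9% ± 1.13 on vehicle (SD, n = 3 each). GABARAPL2 made up 30.2% ± 0.490 in KO cells, 33.7% ± 0.540 in wild-type cells on palbociclib and 44.0% ± 1.12 on vehicle. MAP1LC3B made up 28.0% ± 0.523 in KO cells, 36.7% ± 0.577 in wild-type cells on palbociclib and 36.0% ± 0.0704 on vehicle. On this scale GABARAPL1 was the largest share in KO cells, MAP1LC3B in wild-type cells on palbociclib and GABARAPL2 in wild-type cells on vehicle. Without division by length MAP1LC3B was the largest share on vehicle too, at 47.2 to 47.3% in the 3 vehicle libraries against 32 to 33.9% for GABARAPL2, and its wild-type palbociclib libraries (46.1 to 47.3%) overlapped the vehicle libraries. Per kilobase the libraries of any 2 groups did not overlap for these 3 genes, and each two-sided exact permutation p was 0.1, the smallest that 3 against 3 libraries allow. GABARAP and MAP1LC3A held 1.06% and 0.225% at most, and the share of GABARAP is subject to the limit on its counts given above. Within a library, a larger true GABARAP level would lower every other share in proportion. The differences between groups would then change, and GABARAP could itself hold the largest share.

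**Figure D4:**
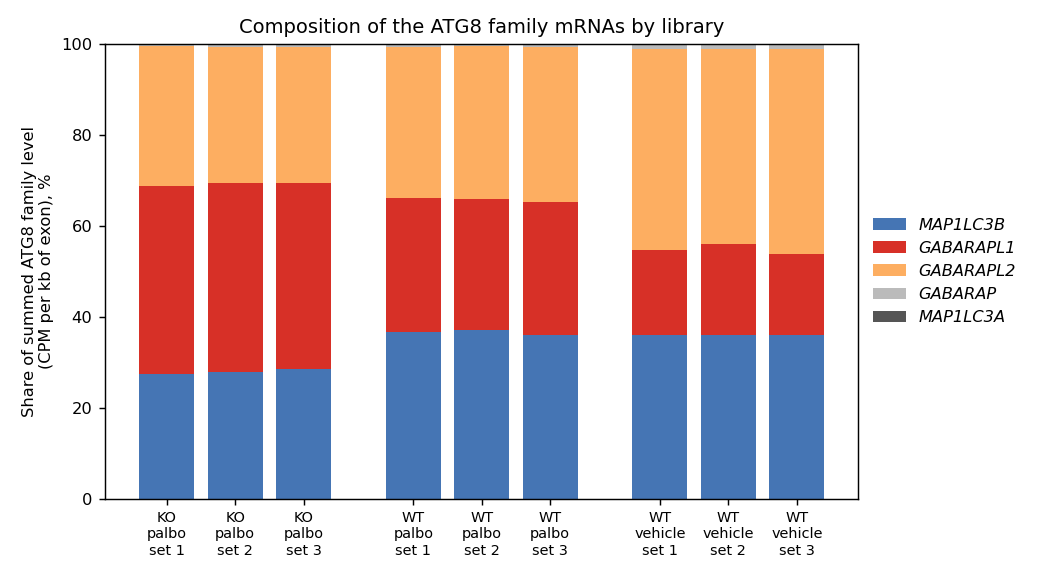
Share of the summed ATG8 family level (y axis, percent of CPM per kb of exon) taken by each of 5 genes in each of the 9 libraries (x axis). The GABARAPL1 share averages 41.2% in KO cells on palbociclib, 29.1% in wild-type cells on palbociclib and 18.9% on vehicle.

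A further 59 genes of the wider pathway, regulators, fusion and tethering factors and organelle receptors, gave a setting for the members, and 55 were tested. In wild-type cells 31 rose and 7 fell with palbociclib (median log2 fold change 0.16). These were 56.4% and 12.7%, beside 21.3% and 22.3% of all genes. Between KO and wild-type cells on palbociclib 9 were higher and 11 lower (median -0.02). These were 16.4% and 20%, not far from the 14.9% and 13% of all genes. With the set as a block 12 were higher and 13 lower in that comparison, and the blocked shares over all genes are not given here. VMP1, an endoplasmic reticulum protein of autophagosome formation (0.42, edgeR adjusted p = 0.000553), RRAGD (0.20, edgeR adjusted p = 0.0489) and SEC62 (0.10, edgeR adjusted p = 0.0462) were then called higher. FLCN (-0.15, edgeR adjusted p = 0.0304) and SH3GLB1 (-0.11, edgeR adjusted p = 0.0297) were then called lower. In KO cells on palbociclib against vehicle 27 were higher and 10 lower (median 0.13). These were 49.1% and 18.2%, beside 25.7% and 26% of all genes. The block added TECPR1 (0.17, edgeR adjusted p = 0.0192) to the genes that rose with the drug in wild-type cells. In KO cells on palbociclib against vehicle it added VMP1 (0.24, edgeR adjusted p = 0.0105) as higher and BNIP3L (-0.10, edgeR adjusted p = 0.0379) as lower. The lysosomal transcription factor TFE3, the tethering subunit VPS11, the endosomal adaptor TOLLIP and GABARAPL3 were at 0 or 1 count in each library and were not tested. As for the members listed at 0 counts, these values cannot be read as expression levels.

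CALCOCO1, a receptor for endoplasmic reticulum and Golgi membranes, had 67.3, 72.0 and 75.6 CPM in KO cells on palbociclib, 81.7, 74.8 and 93.0 CPM in wild-type cells on palbociclib and 33.6, 35.8 and 36.9 CPM on vehicle. It rose by 1.23 ± 0.071 on the log2 scale with the drug in wild-type cells (edgeR adjusted p = 5.01e-10), and was lower in KO than in wild-type cells on the drug (-0.22 ± 0.068, edgeR adjusted p = 0.0253) with overlapping groups. VAMP8, a SNARE of autophagosome and lysosome fusion, had 1.34, 1.44 and 1.07 CPM in KO cells, 4.16, 3.67 and 4.61 CPM in wild-type cells on palbociclib and 1.67, 1.89 and 1.79 CPM on vehicle. The drug raised it by 1.21 ± 0.16 in wild-type cells (edgeR adjusted p = 3.3e-06), and KO cells on the drug stood 1.70 lower on the log2 scale, at -1.70 ± 0.16 (edgeR adjusted p = 1.57e-07). PINK1, the kinase that marks damaged mitochondria, had 18.9, 18.2 and 17.5 CPM in KO cells, 25.5, 23.2 and 20.4 CPM in wild-type cells on palbociclib and 14.4, 13.4 and 10.9 CPM on vehicle. Its 3 groups did not overlap, and it rose by 0.83 ± 0.095 with the drug in wild-type cells (edgeR adjusted p = 1.16e-06).

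MITF, a transcription factor of lysosomal and autophagy genes, had 41.8, 44.1 and 44.0 CPM in KO cells on palbociclib, 29.6, 32.2 and 27.4 CPM in wild-type cells on palbociclib and 18.8, 19.7 and 17.5 CPM on vehicle. Its 3 groups were apart, with log2 fold changes of 0.54 ± 0.065 for KO against wild type on the drug and 0.67 ± 0.068 for palbociclib against vehicle in wild-type cells. Its relative TFEB was not called in either of these comparisons (-0.20 ± 0.12 and -0.20 ± 0.11). In KO cells on palbociclib against vehicle MITF was called higher (1.21 ± 0.067) and TFEB lower (-0.40 ± 0.12, edgeR adjusted p = 0.00591). PHB2, a mitochondrial inner membrane receptor, had 319, 320 and 323 CPM in KO cells, 200, 206 and 217 CPM in wild-type cells on palbociclib and 258, 250 and 258 CPM on vehicle. It was the context gene with the largest rise in KO over wild-type cells on the drug (0.63 ± 0.046, edgeR adjusted p = 4.16e-09). Shifts of neighbours were computed for the members and EIF2AK3 only, so none stand beside PHB2, VAMP8 or the other context genes. BNIP3L, a mitophagy receptor, had 120, 127 and 139 CPM in KO cells, 180, 194 and 224 CPM in wild-type cells on palbociclib and 116, 141 and 159 CPM on vehicle, and was lower in KO than in wild-type cells on the drug (-0.63 ± 0.13, edgeR adjusted p = 0.00665). VPS39, a subunit of the lysosomal tether, had 80.5, 79.6 and 86.7 CPM in KO cells, 78.1, 71.0 and 80.6 CPM in wild-type cells on palbociclib and 48.5, 51.3 and 53.3 CPM on vehicle. It was 0.69 ± 0.057 higher on the log2 scale in KO cells on palbociclib than on vehicle (edgeR adjusted p = 4.92e-09), and the KO group overlapped the wild-type palbociclib group.

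Libraries with the same set number resembled each other, but the set term of the blocked edgeR model was called for 0 of the 35 members (3 at an unadjusted p under 0.05), beside 8.07% of all genes. Of 8 mesenchymal and osteoblast markers 7 averaged at least 1 CPM. Their summed level was 8095 to 9888 CPM in KO cells on palbociclib, 7762 to 8831 CPM in wild-type cells on palbociclib and 5313 to 5684 CPM on vehicle. Summed epithelial markers were at 19.3 to 20.6, 28.8 to 30.8 and 29.3 to 31.3 CPM in the same groups. Endothelial markers summed to 4.97 to 5.2, 5.31 to 5.84 and 3.54 to 4.16 CPM. The 5 haematopoietic markers together reached at most 1.36 CPM, with CD3E at 0. Single markers could move apart from these sums. With the drug in wild-type cells 2 of 4 tested epithelial markers were called higher and 0 lower. CDH1 was among them (log2 1.16 ± 0.15). Called higher too were 6 of 7 mesenchymal and osteoblast, 1 of 2 haematopoietic and 1 of 3 endothelial markers, with 0 lower. Of all genes 21.3% were higher and 22.3% lower. Of the 7 mesenchymal and osteoblast markers 2 were higher in KO than in wild-type cells on the drug (SPARC 0.17, CDH2 0.25). Another 2 were lower (RUNX2 -0.40, ALPL -0.66). Of the 4 epithelial markers 0 were higher and 2 lower (CDH1 -0.77, CLDN4 -0.62). Of all genes 14.9% were higher and 13% lower. The summed RNA quality and handling list, mostly mitochondrial mRNAs, was at 21119 to 26468 CPM in KO cells, 21481 to 26548 CPM in wild-type cells on palbociclib and 17374 to 23204 CPM on vehicle. Its genes HSPA1A and HSPA1B were listed at 0, which cannot be read as a level either. Within that list the nuclear RNA NEAT1 was higher in KO than in wild-type cells on the drug (1551, 1215 and 1625 CPM against 685, 534 and 850 CPM, log2 1.09 ± 0.19, edgeR adjusted p = 0.00603). The immediate early gene EGR1 had 42.4, 48.8 and 48.4 CPM in KO cells, 52.7, 69.0 and 57.1 CPM in wild-type cells on palbociclib and 23.5, 25.8 and 27.6 CPM on vehicle. It rose with the drug in wild-type cells (log2 1.22 ± 0.098, edgeR adjusted p = 7.2e-07) and was lower in KO than in wild-type cells on the drug (-0.36 ± 0.094, edgeR adjusted p = 0.0129). The part these lists and genes had in the members' changes was not tested.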

How the data were processed

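Polyadenylated RNA of 9 libraries was sequenced. The authors deposited unnormalized whole-number counts per gene, 1 column per library. The submitters' processing notes name hg38, STAR 2.7.9a, DESeq2, Trim Galore, FastQC and CASAVA. Their roles, the annotation, the counter and the strand setting were not given in the sources used here.

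IDs were matched to symbols and to GENCODE release 29 without versions (58261 placed). The test was edgeR's robust quasi-likelihood F test (R 4.3.3 with limma 3.58.1 and edgeR 4.0.16) after edgeR's default filter, which kept 99.91% of counts, with TMM scaling (factors of 0.977 to 1.01). A single fit of the 3 groups used all 9 libraries (6 residual degrees of freedom, biological coefficient of variation 5.99%). P-values were Benjamini-Hochberg adjusted over all 19408 genes and called under 0.05. CPM carry TMM factors, and levels between genes were divided by the union exon length. The script was tested on simulated data. DESeq2 1.42.0 was an alternative, and Python 3.11.15 was used for tables. Alternatives changed the scaling, filter, tool, block, libraries in the model and neighbourhood correction, and left out each library.

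Replicates differed beyond sampling noise, with a chi-square of 3.73 to 12 per degree of freedom. Deviations from group means over 12932 genes correlated at 0.176 to 0.541 in the 9 pairs of libraries with the same set number and at -0.401 to 0.0714 in the other 18. Same-numbered libraries therefore looked paired, on these correlations alone, since no label states it. The main model was kept without the block, so its p-values and the permutation test do not use this pairing. Blocked values stand where they change the call of a member or context gene.

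The members and lists were chosen with earlier results of these data known. All members are named or counted. Values per library are given for the 6 highest and 4 lowest called members of each comparison and, by size of change, for 3 context genes of each with a mean of at least 1 CPM. Those of ULK1 and GABARAPL2 were added after their values were seen. Protein sequences of the ATG8 family were not used here.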

Additional observations from a re-analysis of the deposited data

How the results depend on the processing

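Over 15 other settings per comparison no called member changed direction. With palbociclib in wild-type cells 19 of 22 calls held in each setting, and ATG2B, CALCOCO2 and ULK2 were each lost in at least 1. Between genotypes on the drug 9 of 15 held, with ATG12 lost in most settings and ATG14, ATG2A, ATG7, WIPI1 and WIPI2 in at least 1. In KO cells on palbociclib against vehicle 16 of 24 held. PIK3C3 was lost in most settings, and ATG2A, ATG2B, ATG4A, ATG4D, ATG7, SQSTM1 and ULK2 in at least 1. Calls of ATG101 with palbociclib in wild-type cells, of ULK1, RB1CC1, ATG13, ATG3 and ATG4C between genotypes and of ATG4C in KO cells on palbociclib against vehicle were gained in at least 1 setting. The cause was not tested. Fold changes not called in any setting, 38 over the comparisons with that of EIF2AK3 between palbociclib and vehicle among them, were left out of these counts.

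Leaving out single libraries gave 4 to 8 higher members between genotypes and 3 to 6 lower ones in KO cells on palbociclib against vehicle. The median of the members between genotypes was -0.05 after subtracting that of the neighbours. With library totals only, the median in KO cells on palbociclib against vehicle was 0.13. The MAP1LC3B share differed by 0.705 points between palbociclib and vehicle per length, and by -0.543 points on CPM without length, a difference of construction. With sets as a replicate block 10 members were higher and 9 lower between genotypes. The blocked shares over all genes are not given here, so these counts cannot be set against them. Beside the calls named in the report no member's call changed with the block. Without SQSTM1 and GABARAP, a setting chosen after seeing the data, 18 of 33 members were higher with palbociclib in wild-type cells, 8 between genotypes and 18 in KO cells on palbociclib against vehicle. Counts of ATG16L1, WDR45 and MAP1LC3A are too low to show a difference, and those of SQSTM1 and GABARAP cannot be read as levels.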
